A study of Mus musculus with 8 samples.

Results

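The high-fat diet (HFD) was set against the normal diet (ND) in liver of *Rag1*-/- mice that had not undergone ischemia-reperfusion injury (IRI). All 84 cytokine and chemokine genes of a mouse quantitative PCR array were taken, out of 84 on the array, in 2 of the 8 deposited pools, the HFD *Rag1*-/- non-IRI pool and the ND *Rag1*-/- non-IRI pool. Both groups carry the *Rag1* null allele, so neither diet group has T or B cells, while innate lymphoid cells (ILCs) and natural killer (NK) cells remain. The HFD was lard-based with 60% of its energy from fat, begun in week 5 to 7 of life and given for 12 weeks in general and for 12 to 15 weeks in *Rag1*-/- mice. The ND was standard chow, given from week 4 of life for 12 to 15 weeks. Non-IRI mice had anesthesia and a laparotomy with no clamping, after which the entire liver was taken, so the RNA is that of whole liver and not of a sorted cell type. The other 6 pools are the injured *Rag1*-/- livers and the livers, injured or not, of Rag1-Tbet double-knockout (DKO) mice, which also lack the transcription factor T-bet, on both diets. From mice with IRI the left lobe was collected.

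Each pool held RNA of at least 3 livers, and each gene was read in 1 well per pool. The 2 pools therefore give 1 value a side, with no spread between mice and no test, and a diet difference and a difference between these pools for any other reason cannot be told apart. Mice of these genotypes were 17 to 19 weeks old when evaluated in another experiment, and the age, sex and strain background of those on the array are not given separately in the sources used here. Fewer cells of a type and less RNA per cell cannot be told apart in pooled whole liver. *Rag1* itself is not on the array, so the genotype label could not be checked by its own transcript.

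RAG1 is a recombinase that assembles antigen receptor genes, and without it T and B cell development stops. The lymphocytes left in a *Rag1*-/- liver include type 1 ILCs (ILC1s) and conventional NK cells, which answer IL-12, IL-15 and IL-18 with interferon-γ, TNF and death ligands. Kupffer cells, sinusoidal endothelium, stellate cells and hepatocytes make many of the chemokines that bring monocytes, neutrophils and lymphocytes into liver, and a diet rich in fat is widely used in mice to produce fatty liver and low-grade inflammation. Fat content was not measured in these data.

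The value of a well is its threshold cycle (Ct), the PCR cycle at which fluorescence crosses a set line, so a lower Ct means more transcript and 1 cycle is nominally a factor of 2. A Ct of 35 is the highest in the table and was taken as the detection limit. The log2 fold is the HFD pool relative to the ND pool after subtracting in each pool the mean Ct of *Actb* and *Hsp90ab1*, the β-actin and HSP90-β genes used as references, and it is positive where the HFD pool was higher. A gene at Ct 35 in the ND pool alone has only a lower bound, written "at least". A gene was counted as higher or lower at a change of 2-fold, a log2 fold of 1, which is a rule of size and not of significance.

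On this scale most of the array was higher in the HFD pool. Of the 84 genes, 69 were below Ct 35 in both pools, 8 were below it in the HFD pool alone, none was below it in the ND pool alone, and 7 were at 35 in both, which left 77 genes with a fold or a bound. Of these 77, 55 were at least 2-fold higher (71.4%) and 1 was at least 2-fold lower (1.3%). The 69 genes measured in both pools had a median log2 fold of 1.41, or 2.66-fold, with quartiles of 0.76 and 2.08 and a range of -1.41 to 4.35. Among them 63 were above 0 and 6 were below 0, and 18 were at least 4-fold and 4 at least 8-fold higher.

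How much of this is a property of single genes depends on the reference. The mean Ct of *Actb* and *Hsp90ab1* was 15.22 in the HFD pool and 15.58 in the ND pool, a difference of -0.36 cycles. The median Ct of the 62 genes below 35 in all 8 pools was 23.93 in the HFD pool and 26.21 in the ND pool, a difference of -2.28 cycles. Before any reference was subtracted, Ct was lower in the HFD pool for 65 of the 69 measured genes. The array as a whole therefore moved by far more than its reference genes did.

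The median Ct of the array as the reference takes 1.92 off every log2 fold. Then 11 of 77 genes were at least 2-fold higher (14.3%) and 22 were at least 2-fold lower (28.6%). A milder version, which subtracts the median of the gene-by-gene Ct differences, takes off 1.41 and gave 18 of 77 genes higher (23.4%) and 11 lower (14.3%). A log2 fold under 1.41 on the *Actb* and *Hsp90ab1* scale thus marks a gene below the middle of the array, and a positive one under 1.92 turns negative with the median Ct reference, as it did for 42 of the 63 genes above 0.

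The housekeeping genes did not keep 1 ratio to each other. *B2m*, the light chain of MHC class I, read Ct 12.82 in the HFD pool and 14.02 in the ND pool, a log2 fold of 0.84. *Gapdh*, the glycolytic enzyme, read 14.87 in the HFD pool and 15.87 in the ND pool, a log2 fold of 0.64, and *Gusb*, a lysosomal glucuronidase, read 19.72 and 21.21, a log2 fold of 1.13. *Actb* read 14.91 in the HFD pool and 15.19 in the ND pool, and *Hsp90ab1* read 15.53 and 15.97, log2 folds of -0.08 and 0.08 that average 0 by construction. The SD of the 5 housekeeping log2 folds was 0.511, and the 3 that were not used as references were all higher in the HFD pool, with a median of 0.84. Whether input, reverse transcription or the references themselves differed between the pools was not tested.

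**Figure D1:**
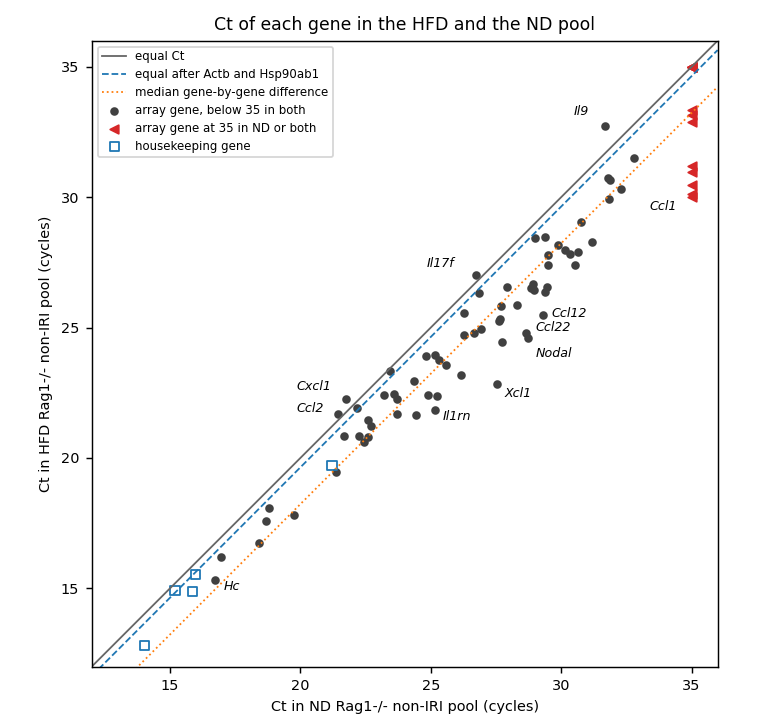
Ct of each gene in the HFD *Rag1*-/- non-IRI pool (vertical axis, cycles) against the ND *Rag1*-/- non-IRI pool (horizontal axis, cycles), 1 well per gene and pool. Points lie below the line of equal Ct for 65 of 69 measured genes, *Xcl1* lies far below it, and *Il9*, *Il17f*, *Cxcl1* and *Ccl2* lie above it.

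Across 12 choices of reference (*Actb* and *Hsp90ab1*, each of the 5 housekeeping genes alone, housekeeping sets of 3 and 5 genes, the *Nodal*, *Il9* and *Csf1* set, raw Ct and the 2 array medians), 11 genes were at least 2-fold higher under each. A reference only takes a constant off every log2 fold, and the median Ct takes off the most, 1.92. These are thus the 11 genes that passed with the median Ct, and the other references add no support. Measured in both pools were *Xcl1*, *Nodal*, *Ccl22*, *Ccl12*, *Il1rn* and *Il7*, and bounds were *Ccl1*, *Il12a*, *Tnfsf11*, *Cxcl3* and *Ifna2*. The last 2 do not pass 2-fold once the detection limit is set at Ct 32, with bounds of 0.69 and 0.43. *Il9* was the 1 gene at least 2-fold lower under each of the 12, which here means only that it passed with raw Ct. *Ccl2*, *Cxcl1* and *Il17f* were below 0 under each without always reaching 2-fold, and 21 measured genes were above 0 under each.

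**Figure D2:**
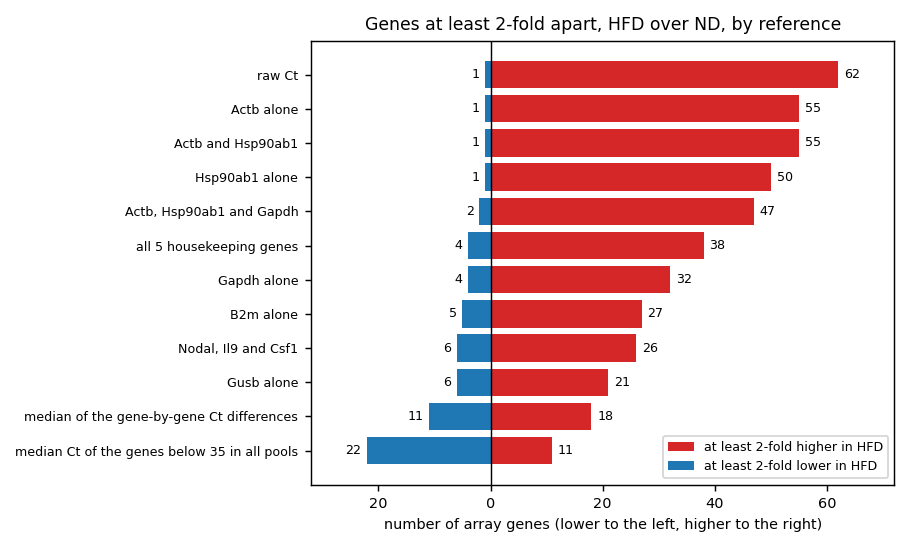
Number of array genes at least 2-fold higher (right) or lower (left) in the HFD pool than in the ND pool under each of 12 references. The counts go from 62 higher and 1 lower with raw Ct to 11 higher and 22 lower with the array's median Ct.

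With 71.4% of all genes higher, a list of a few genes that were mostly or all higher lies near the background of the array. Each list's counts are to be read beside that share. With the median Ct the shares of all genes were 14.3% higher and 28.6% lower. With the median of the gene-by-gene differences they were 23.4% and 14.3%. Medians against the median Ct are given for most lists, with the list or with the processing. The median Ct is the harsher of the 2 array references, and the measured genes had a median of -0.51 on it.

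The effector cytokines of NK cells and ILC1s were all higher in the HFD pool, 5 of 5, with a median log2 fold of 2.14. *Xcl1*, the lymphotactin that NK cells secrete to draw XCR1-bearing dendritic cells, read Ct 22.83 in the HFD pool and 27.54 in the ND pool. That is a log2 fold of 4.35, or 20.4-fold, the largest of the 69 measured genes. *Ifng*, which encodes interferon-γ, read 28.3 in the HFD pool and 31.19 in the ND pool, a log2 fold of 2.53 (5.78-fold). *Csf2*, the granulocyte-macrophage growth factor GM-CSF, read 26.44 and 28.94, a log2 fold of 2.14, in the HFD and the ND pool. *Tnf*, the macrophage and lymphocyte cytokine, read 26.68 in the HFD pool and 28.92 in the ND pool (log2 fold 1.88), and *Lta*, lymphotoxin-α, read 29.92 and 31.85 (log2 fold 1.57). Against the median Ct of the array the list's median was 0.22 and *Xcl1* alone of the 5 stayed past 2-fold, while *Tnf* read -0.04.

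Both death ligands were higher. *Tnfsf10*, which encodes TRAIL, read Ct 21.65 in the HFD pool and 24.42 in the ND pool, a log2 fold of 2.41 (5.31-fold). *Fasl*, the ligand of the Fas death receptor, read 26.51 in the HFD pool and 28.84 in the ND pool, a log2 fold of 1.97 (3.92-fold). Their median log2 fold of 2.19 was 0.27 against the median Ct of the array, so neither passed 2-fold there.

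Of the 5 cytokines that stimulate ILC1s and NK cells, 4 were higher and *Il21*, a T cell product, was at Ct 35 in both pools. *Il12a*, the p35 chain of IL-12, read Ct 30.14 in the HFD pool and 35 in the ND pool, at least 22.6-fold higher (log2 fold at least 4.50). Its partner *Il12b*, the p40 chain shared by IL-12 and IL-23, read 26.36 in the HFD pool and 29.39 in the ND pool, a log2 fold of 2.67 (6.36-fold). *Il15*, the survival factor of NK cells and ILC1s, read 22.43 in the HFD pool and 24.88 in the ND pool (log2 fold 2.09), and *Il18*, an inflammasome-processed cytokine, read 19.46 and 21.35 (log2 fold 1.53). With the limit at Ct 35 the 2 chains of IL-12 thus lay highest in the list and *Il18* lowest, at -0.39 against the median Ct of the array. With the limit at Ct 32 the bound for *Il12a* was 1.50, below the folds of *Il15* and *Il18*, so its place is then not known.

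A group of 3 neighbouring inflammatory chemokine genes, expressed by macrophages and lymphocytes, was higher for 3 of 3. *Ccl5* (RANTES) read Ct 22.36 in the HFD pool and 25.22 in the ND pool, a log2 fold of 2.50. *Ccl4* read 25.27 in the HFD pool and 27.6 in the ND pool (log2 fold 1.97), and *Ccl3* read 24.95 and 26.91 (log2 fold 1.60). Against the array's median Ct none of the 3 passed 2-fold, the list's median was 0.05 and *Ccl3* read -0.32.

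Among interferons and the interferon-inducible CXCR3 ligands, 3 of 4 passed 2-fold, close to the 71.4% of all genes, and the median of the measured members was -0.42 against the array's median Ct. *Ifna2*, a type I interferon gene, read Ct 31.21 in the HFD pool and 35 in the ND pool, at least 10.8-fold higher. *Cxcl11* read 26.54 in the HFD pool and 29.45 in the ND pool (log2 fold 2.55), *Cxcl9* read 24.81 and 26.67 (log2 fold 1.50), and *Cxcl10* read 21.47 and 22.59 (log2 fold 0.76). The 3 CXCR3 ligands, which share the receptor that recruits NK and T cells, were therefore spread over 1.79 on the log2 scale, and *Cxcl10* was among the 22 genes lower against the array's median Ct.

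**Figure D3:**
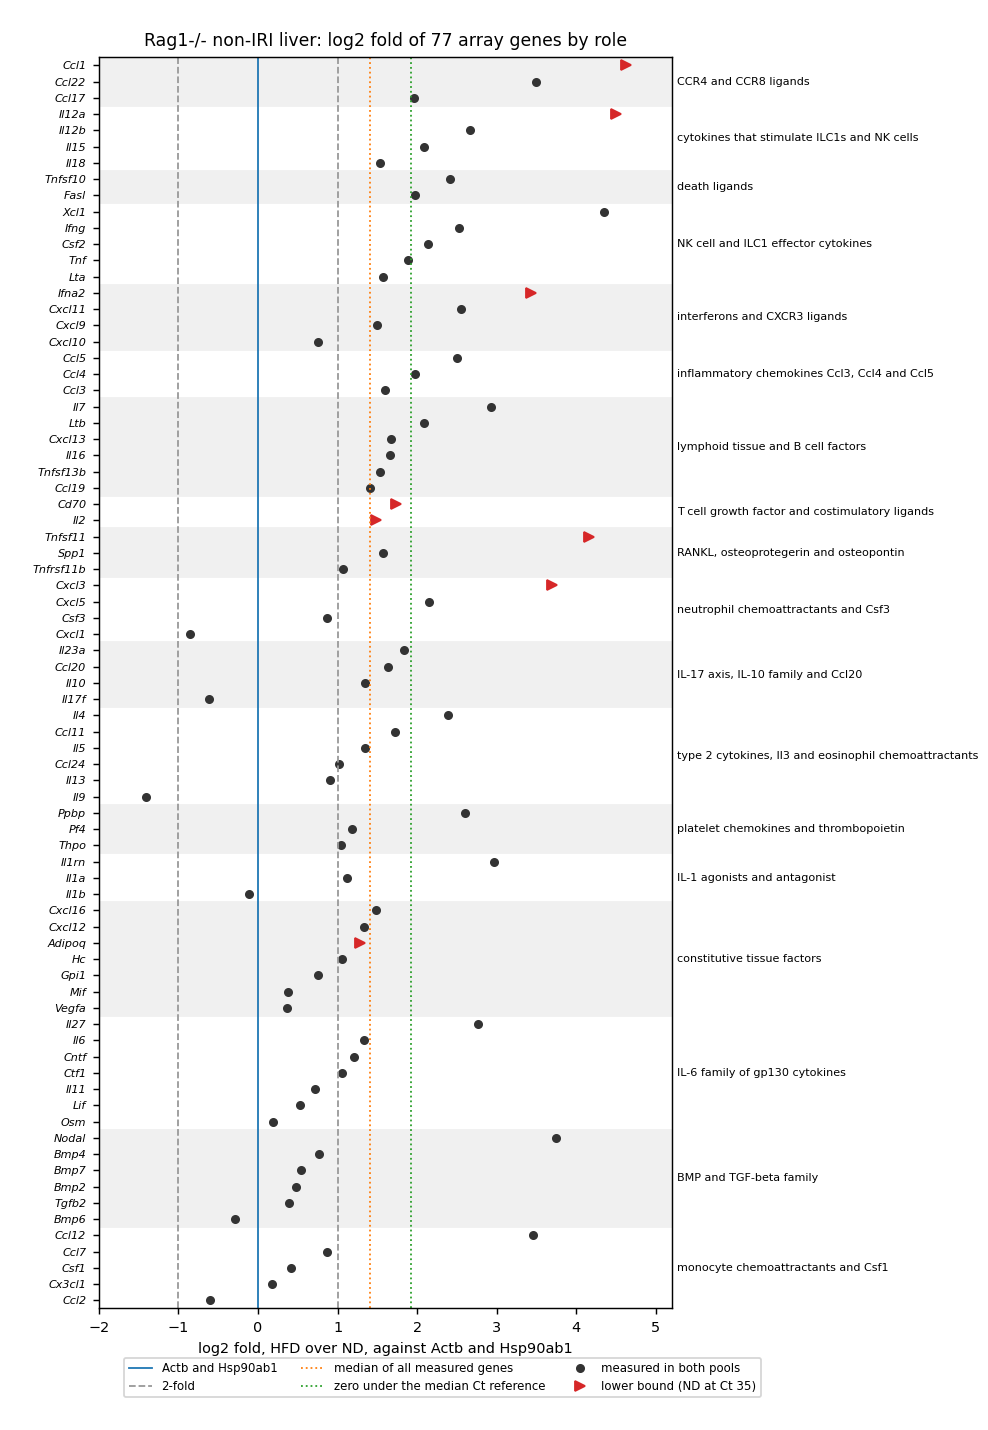
log2 fold of the HFD pool over the ND pool against *Actb* and *Hsp90ab1* (horizontal axis) for the 77 array genes with a fold or a bound, grouped by role. Circles are genes measured in both pools, triangles are lower bounds, and the dotted lines mark the median of all measured genes (1.41) and the zero of the median Ct reference (1.92).

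The chemokines that act on CCR4 and CCR8, receptors of regulatory and type 2 lymphocytes, were higher for 3 of 3. Their list median of 2.73 was the highest of the measured lists. It rests on the 2 measured members, *Ccl22* and *Ccl17*, and leaves out the bound for *Ccl1*. *Ccl22*, which macrophages and dendritic cells make, read Ct 24.8 in the HFD pool and 28.65 in the ND pool, a log2 fold of 3.49 (11.2-fold). *Ccl17* read 25.33 in the HFD pool and 27.65 in the ND pool, a log2 fold of 1.96. *Ccl1*, the CCR8 ligand, read 30.01 in the HFD pool and 35 in the ND pool, at least 24.8-fold higher and the largest bound on the array. *Ccl22* and *Ccl1* stayed past 2-fold against the median Ct of the array. There the median of the 2 measured members was 0.81, with *Ccl22* at 1.57 and *Ccl17* at 0.04.

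The monocyte chemoattractants were split. *Ccl12* (MCP-5) read Ct 25.5 in the HFD pool and 29.31 in the ND pool, a log2 fold of 3.45 (10.9-fold). *Ccl2* (MCP-1), like *Ccl12* a ligand of the monocyte receptor CCR2, read 21.67 in the HFD pool and 21.43 in the ND pool, a log2 fold of -0.60. The remaining members lay within 2-fold, namely *Ccl7* at 0.87, the growth factor *Csf1* at 0.42 and the membrane-bound *Cx3cl1* at 0.18. With 1 of 5 past 2-fold and a median of 0.42, this list lay the furthest below the array's median of 1.41. Of its 5 members 4 were at least 2-fold lower against the array's median Ct, and 2 against the median of the gene-by-gene differences. The shares of all genes lower on these references were 28.6% and 14.3%.

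The neutrophil chemoattractants were split in the same manner, with 2 of 4 past 2-fold. The median of the measured members was 0.87, and -1.05 against the array's median Ct. *Cxcl3* read Ct 30.95 in the HFD pool and 35 in the ND pool, at least 12.9-fold higher, and *Cxcl5* read 27.82 and 30.33, a log2 fold of 2.15 (4.44-fold). *Cxcl1* (KC), a ligand of the same receptor CXCR2, read 22.25 in the HFD pool and 21.76 in the ND pool, a log2 fold of -0.85, or 1.80-fold lower. *Csf3*, the granulocyte growth factor G-CSF, read 30.64 in the HFD pool and 31.87 in the ND pool (log2 fold 0.87).

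*Cxcl3* and *Cxcl1* are neighbours in 1 chemokine cluster and moved apart, so the sequences before their start sites are given, from RefSeq on build GRCm38.p6, chr5:90785851-90786150 for *Cxcl3* and chr5:90890995-90891294 for *Cxcl1*, both on the plus strand. Each run covers 250 bases before to 50 bases after the annotated start, and capitals mark letters that match a κB motif, the sequence bound by NF-κB, or the TATA motif TATAAA.
Cxcl3: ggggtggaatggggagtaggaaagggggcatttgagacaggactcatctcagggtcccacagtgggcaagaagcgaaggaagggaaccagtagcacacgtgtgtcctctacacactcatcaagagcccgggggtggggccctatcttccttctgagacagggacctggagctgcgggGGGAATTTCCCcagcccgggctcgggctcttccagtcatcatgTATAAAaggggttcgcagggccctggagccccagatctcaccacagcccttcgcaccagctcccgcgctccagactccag
Cxcl1: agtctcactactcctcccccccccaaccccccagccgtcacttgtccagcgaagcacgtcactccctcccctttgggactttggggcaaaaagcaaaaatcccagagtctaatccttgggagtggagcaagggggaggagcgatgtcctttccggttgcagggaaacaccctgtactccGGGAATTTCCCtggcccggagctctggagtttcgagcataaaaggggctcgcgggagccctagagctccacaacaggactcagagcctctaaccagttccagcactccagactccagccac

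Both windows hold the same 11-base run GGGAATTTCCC, in which a κB match on each strand overlaps the other, starting 73 bases before the start of *Cxcl3* and 71 bases before that of *Cxcl1*. The genes therefore share this match while *Cxcl3* was at least 12.9-fold higher in the HFD pool than in the ND pool and *Cxcl1* was 1.80-fold lower. The other marked motif, TATAAA, was in the window of *Cxcl3* and not in that of *Cxcl1*. The bound for *Cxcl3* rests on 1 well at Ct 30.95, and with a limit of 32 it is a log2 fold of at least 0.69, which does not pass 2-fold. Of 32851 RefSeq promoter windows of the same length, 8.46% hold a κB match and 13.6% hold TATAAA on either strand. Among 62 array genes with a window in the table, 11 (17.7%) held a κB match and 23 (37.1%) held TATAAA, and among the 10 with a window of the 11 genes that stayed 2-fold higher under each reference these were 2 and 4. The interferon-γ activation element TTCNNNGAA, searched on both strands, was in 5 of the 62 windows (8.06%), in none of those 10, and in 8.3% of all windows. A match of letters is a description of the sequence and not evidence of binding.

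Array genes that lie next to each other in the genome gave further pairs of this kind. In the cluster of *Ccl2*, *Ccl7*, *Ccl11*, *Ccl12* and *Ccl1* the log2 folds ran over at least 5.23, from -0.60 for *Ccl2* to at least 4.63 for *Ccl1*. In the cluster of *Cxcl5*, *Ppbp*, *Pf4*, *Cxcl3* and *Cxcl1* they ran over at least 4.54, its upper end being the bound for *Cxcl3*, and for *Ccl22*, *Cx3cl1* and *Ccl17* over 3.31. By contrast the tumor necrosis factor cluster of *Ltb*, *Tnf* and *Lta* ran over 0.51 and *Ccl5*, *Ccl3* and *Ccl4* over 0.90, so some neighbours lay close together and others did not.

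In the IL-1 system the antagonist had a larger fold than either agonist. *Il1rn*, which encodes the IL-1 receptor antagonist, read Ct 21.84 in the HFD pool and 25.17 in the ND pool, a log2 fold of 2.97 (7.84-fold). *Il1a* read 21.24 in the HFD pool and 22.72 in the ND pool (log2 fold 1.12), and *Il1b* read 21.93 and 22.18 (log2 fold -0.11). The difference between the folds of *Il1rn* and *Il1b* does not depend on the reference, since both were read in the same pools.

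Of the IL-6 family, whose members signal through gp130, 4 of 7 passed 2-fold and the median was 1.05. *Il27*, which encodes the p28 chain of IL-27, read Ct 27.4 in the HFD pool and 30.52 in the ND pool, a log2 fold of 2.76 (6.77-fold). *Il6*, the inducer of the hepatic acute phase, read 27.8 in the HFD pool and 29.49 in the ND pool (log2 fold 1.33). The neurotrophic members *Cntf* and *Ctf1* had log2 folds of 1.21 and 1.05. *Il11* read 30.72 in the HFD pool and 31.8 in the ND pool (log2 fold 0.72), *Lif* read 28.49 and 29.38 (log2 fold 0.53), and *Osm*, a product of macrophages and neutrophils, read 28.44 and 28.99 (log2 fold 0.19). *Il27* was the single member above 0 against the median Ct of the array.

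The BMP and TGF-β family stayed close to the reference genes apart from *Nodal*. *Nodal*, a TGF-β family ligand known from embryonic patterning, read Ct 24.61 in the HFD pool and 28.71 in the ND pool, a log2 fold of 3.74 (13.4-fold), second to *Xcl1* among measured genes. The other measured members lay within 2-fold. *Bmp2*, an endothelial signal for hepcidin, read 20.85 in the HFD pool and 21.69 in the ND pool (log2 fold 0.48), and *Bmp6*, which acts on hepcidin as well, read 23.35 and 23.42 (log2 fold -0.29). *Bmp4*, *Bmp7* and *Tgfb2* had log2 folds of 0.77, 0.54 and 0.39, and *Mstn*, the muscle growth inhibitor myostatin, was at Ct 35 in both pools. The list's median was 0.51. Against the array's median Ct 5 of its 6 measured genes were at least 2-fold lower, beside 28.6% of all genes. Against the median of the gene-by-gene differences 2 were, beside 14.3% of all genes.

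The type 2 cytokines and eosinophil chemoattractants held the 1 gene that was lower. Of the 7 genes in this list 4 were higher. The measured members had a median of 1.18, and -0.74 against the array's median Ct. *Il9*, a growth factor of mast cells made by lymphocytes, read Ct 32.74 in the HFD pool and 31.69 in the ND pool, a log2 fold of -1.41, or 2.66-fold lower. *Il4*, the defining type 2 cytokine, read 27.91 in the HFD pool and 30.66 in the ND pool (log2 fold 2.39), and *Il5*, the eosinophil growth factor, read 29.06 and 30.76 (log2 fold 1.34). *Il13*, which shares a receptor chain with *Il4*, read 31.52 in the HFD pool and 32.79 in the ND pool (log2 fold 0.91). The eosinophil chemoattractants *Ccl11* (eotaxin-1) and *Ccl24* (eotaxin-2) were higher, with log2 folds of 1.72 and 1.02. *Il3* was at Ct 35 in both pools. The *Il9* wells lie past Ct 30, where a single well rests on few template molecules, and with the limit set at Ct 32 the HFD well counts as undetected and the fold no longer passes 2-fold.

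In the list of the IL-17 axis, the IL-10 family and *Ccl20*, 3 of 7 passed 2-fold and 3 were undetected in both pools, namely *Il17a*, *Il22* and the less studied *Il24*. *Il17f*, a product of type 3 lymphocytes, read Ct 27.01 in the HFD pool and 26.75 in the ND pool, a log2 fold of -0.62. *Il23a*, the p19 chain that pairs with *Il12b* to form IL-23, read 27.97 in the HFD pool and 30.16 in the ND pool (log2 fold 1.83). *Il10*, the anti-inflammatory cytokine, read 28.17 in the HFD pool and 29.88 in the ND pool (log2 fold 1.35), and *Ccl20*, the CCR6 ligand, read 30.31 and 32.3 (log2 fold 1.63). None of these passed 2-fold upward against either array median.

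The lymphoid tissue and B cell factors were higher for 6 of 6, with a median of 1.67. *Il7*, the stromal and hepatocyte survival factor of lymphocytes, read Ct 24.44 in the HFD pool and 27.73 in the ND pool, a log2 fold of 2.93 (7.62-fold). *Ltb*, lymphotoxin-β, read 25.85 in the HFD pool and 28.29 in the ND pool (log2 fold 2.08). *Cxcl13*, the B cell attractant, read 21.68 in the HFD pool and 23.71 in the ND pool (log2 fold 1.67). *Il16*, *Tnfsf13b* (BAFF) and the CCR7 ligand *Ccl19* had log2 folds of 1.66, 1.53 and 1.41. Apart from *Il7* the members ran between 1.41 and 2.08, at or above the median of all measured genes. Against the array's median Ct the list's median was -0.255 and *Il7* alone passed 2-fold.

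The genes tied most closely to T cells stayed at or near the detection limit. *Cd40lg*, the ligand with which helper T cells license B cells, was at Ct 35 in both pools, as were *Il17a* and *Il21*. *Il2*, the T cell growth factor, read 33.16 in the HFD pool and 35 in the ND pool, at least 2.79-fold higher, and *Cd70*, the ligand of CD27, read 32.9 and 35, at least 3.34-fold higher. Of the 6 T cell markers on the array 3 were undetected in both pools, 1 was a bound and 2, *Il4* and *Il17f*, were measured in both, and lymphocytes other than T cells also make these last 2.

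RANKL, osteoprotegerin and osteopontin were higher for 3 of 3. *Tnfsf11*, which encodes RANKL, read Ct 30.48 in the HFD pool and 35 in the ND pool, at least 17.9-fold higher. *Tnfrsf11b*, its decoy receptor osteoprotegerin, read 22.26 in the HFD pool and 23.69 in the ND pool (log2 fold 1.07). *Spp1*, the matrix cytokine osteopontin, read 17.81 in the HFD pool and 19.74 in the ND pool (log2 fold 1.57). The median of the measured pair, 1.32, lay below the 1.41 of all measured genes, and against the array's median Ct *Tnfrsf11b* read -0.85 and *Spp1* -0.35.

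The platelet chemokines and thrombopoietin were higher for 3 of 3. *Ppbp* (CXCL7), which platelets store, read Ct 23.19 in the HFD pool and 26.15 in the ND pool, a log2 fold of 2.60 (6.06-fold). *Pf4*, the other platelet granule chemokine, read 24.73 in the HFD pool and 26.27 in the ND pool (log2 fold 1.18). *Thpo*, the hepatocyte hormone that drives platelet production, read 20.83 in the HFD pool and 22.23 in the ND pool (log2 fold 1.04). Their median of 1.18 lay below the 1.41 of all measured genes and was -0.74 against the array's median Ct, where none of the 3 passed 2-fold. The livers' blood content was not measured.

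The factors made constitutively by liver tissue lay mostly below the array's median. *Hc*, complement C5 of hepatocytes, read Ct 15.32 in the HFD pool and 16.74 in the ND pool (log2 fold 1.06), and *Gpi1*, the glycolytic isomerase, read 17.57 and 18.69 (log2 fold 0.76). *Mif*, the macrophage migration inhibitory factor, read 16.21 in the HFD pool and 16.95 in the ND pool (log2 fold 0.38), and *Vegfa*, the endothelial growth factor, read 18.07 and 18.79 (log2 fold 0.36). *Cxcl12*, the CXCR4 ligand of stroma and endothelium, and *Cxcl16*, the CXCR6 ligand of sinusoidal cells, had log2 folds of 1.33 and 1.48. *Adipoq*, the adipocyte hormone adiponectin, read 33.36 in the HFD pool and 35 in the ND pool, at least 2.43-fold higher.

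The markers of liver cell types fixed for the tissue moved with these lists. The set taken for hepatocytes was *Hc*, *Thpo* and *Gpi1*, though *Gpi1*, the glycolytic isomerase, is not particular to hepatocytes. The set was early in both pools, with Ct of 15.32 to 20.83 in the HFD pool and 16.74 to 22.23 in the ND pool. For *Hc* and *Thpo* this fits the label of whole liver. The median log2 fold of the hepatocyte set was 1.04 and that of the 5 endothelial and stromal markers 0.48. That of the 6 macrophage and Kupffer cell cytokines was 1.59 and that of the 2 platelet markers 1.89, beside 1.41 over all measured genes. The part of cell composition in the differences was not tested.

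The 8 genes detected in the HFD pool alone each rest on a single HFD well, at Ct 30.01 to 33.36. With the detection limit at Ct 32 the bounds were a log2 fold of at least 1.63 for *Ccl1*, 1.50 for *Il12a* and 1.16 for *Tnfsf11*, which still passed 2-fold, against 0.69 for *Cxcl3* and 0.43 for *Ifna2*. *Cd70*, *Il2* and *Adipoq* were then at the limit in both pools.

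The size of the fold varied with Ct. The 32 measured genes with a mean Ct of 25 to 30 had a median log2 fold of 1.92, and 27 of them passed 2-fold upward. The 25 genes at 20 to 25 had a median of 1.07, with 15 past 2-fold, the 6 genes below 20 a median of 0.91, and the 6 genes above 30 a median of 0.89. Genes above 30 that were undetected in the ND pool are left out of that last median.

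Across the 8 pools the ND *Rag1*-/- non-IRI pool stood low and the HFD one stood high on the *Actb* and *Hsp90ab1* scale. Over the 62 genes detected in every pool, the HFD *Rag1*-/- non-IRI pool was the highest of 8 for 19 and the lowest for 2, and the ND *Rag1*-/- non-IRI pool was the highest for none and the lowest for 31. Among the 4 uninjured pools the HFD pool was highest for 40 and lowest for 2, while the ND pool was highest for 3 and lowest for 36. On the median Ct scale, over the 8 pools, these were 6 highest and 5 lowest for the HFD pool and 10 highest and 4 lowest for the ND pool. Among the 4 uninjured pools that scale turned the order round, with 11 highest and 25 lowest for the HFD pool and 21 highest and 8 lowest for the ND pool. The ranks of both pools therefore turn on the reference as the folds do.

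Levels of 4 genes are given as examples on the *Actb* and *Hsp90ab1* scale. The level of *Xcl1*, given as the negative of its Ct above the reference mean, was -7.61 cycles in the HFD *Rag1*-/- non-IRI pool and -11.96 in the ND one, the highest and the lowest of the 8 pools, with the other 6 between -11.42 and -9.22. *Nodal* was at -9.39 in the HFD *Rag1*-/- non-IRI pool and -13.13 in the ND one, again the highest and the lowest of 8. *Ccl22* was at -9.58 and -13.07 in these pools, with the other 6 between -12.82 and -10.76. *Il9* was at -17.52 in the HFD pool, the lowest of 8, and at -16.11 in the ND pool. On the median Ct scale the HFD *Rag1*-/- non-IRI pool was again the highest of 8 for *Xcl1* and *Ccl22* and the lowest for *Il9*, while for *Nodal* the HFD DKO non-IRI pool lay above it. There the ND *Rag1*-/- non-IRI pool was the lowest for *Nodal* alone, with 1 pool below it for *Xcl1* and 4 for *Ccl22*.

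**Figure D4:**
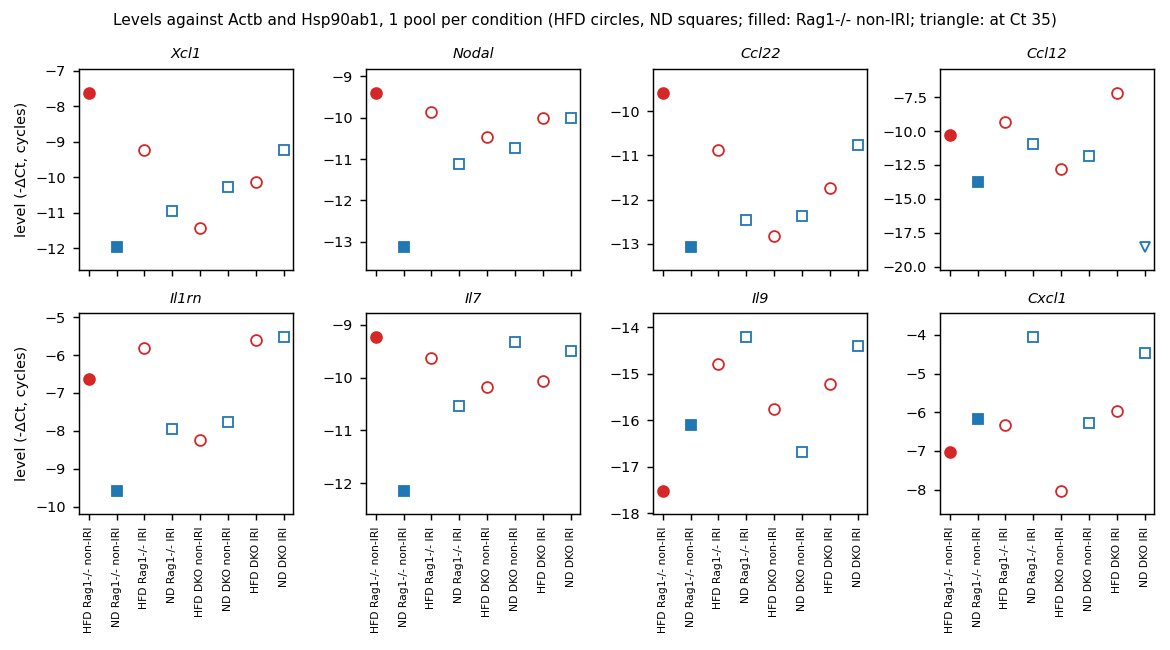
Level of 8 genes (vertical axis, negative ΔCt against *Actb* and *Hsp90ab1* in cycles) in each of the 8 pools, HFD pools as circles and ND pools as squares, filled for *Rag1*-/- non-IRI liver. For *Xcl1*, *Nodal* and *Ccl22* the filled circle is the highest and the filled square the lowest of the 8 pools on this scale, and for *Il9* the filled circle is the lowest.

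The diet comparison in uninjured DKO liver gave the opposite balance. There 5 of 79 genes were at least 2-fold higher in the HFD pool (6.33%) and 23 were at least 2-fold lower (29.1%), with a median log2 fold of -0.47 over 66 measured genes. In the ND DKO pool *Il3* and *Cd40lg* read Ct 9.36 and 11.44, earlier than *Actb* at 14.69, and *Csf2* read 19.59, so these wells look aberrant. Without these 3 genes 20 of 76 were lower, which was computed after seeing the data. That comparison shares no pool with the *Rag1*-/- one. Of the 55 genes higher in *Rag1*-/- non-IRI liver, 3 were higher in DKO liver as well (*Cxcl3*, *Il12b* and *Lta*), 13 were lower there and 39 passed 2-fold in neither direction or had no fold. Over the 64 genes measured in both comparisons the log2 fold was larger in *Rag1*-/- liver for 59, and across genes Pearson's r was -0.07 and Spearman's rho -0.01. These values include *Csf2*, with its aberrant-looking well, and were not recomputed without it. The count of 59 holds for the *Actb* and *Hsp90ab1* scale only. The median Ct takes 1.92 off each fold in *Rag1*-/- liver and raises each fold in DKO liver, and the count was not made there. Genes are not independent replicates, all genes of a pool share its reference, and with 1 pool a condition the difference between the genotypes was not tested.

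In DKO liver, too, the array moved apart from its reference genes, by 1.56 cycles in median Ct against 0.47 in the reference mean, the HFD pool being the later in both. With the median Ct as the reference that comparison gave 18 genes higher and 13 lower. *Nodal* had a log2 fold of 3.74 in *Rag1*-/- non-IRI liver and 0.27 in DKO non-IRI liver, and *Xcl1* had 4.35 and -1.14.

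After IRI the diet comparison in *Rag1*-/- liver lay between these. There 22 of 77 genes were at least 2-fold higher in the HFD pool (28.6%) and 9 were at least 2-fold lower (11.7%), with a median log2 fold of 0.44 over 72 measured genes. With the median Ct as the reference these were 15 higher and 14 lower. Of the 55 genes higher without IRI, 16 were higher after it as well, a share near the 28.6% of all genes. Among the 16 were *Xcl1*, *Nodal*, *Ccl22*, *Ccl12*, *Il1rn*, *Cxcl3* and *Il12a*. Lower after IRI were 5 of the 55, namely *Ccl17*, *Ccl24*, *Cd70*, *Ifna2* and *Tnfsf11*. Over 68 genes measured in both, Pearson's r was 0.42 and Spearman's rho 0.40 across genes, and the log2 fold was larger in uninjured liver for 57. That count, too, holds for the *Actb* and *Hsp90ab1* scale only, since the median Ct moves the folds of the 2 comparisons by different amounts. *Xcl1* had a log2 fold of 4.35 without IRI and 1.73 after it, and *Nodal* 3.74 and 1.26. The injured pools come from the left lobe and the uninjured ones from the entire liver, so the tissue taken differs as well. The difference between injured and uninjured liver was not tested.

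**Figure D5:**
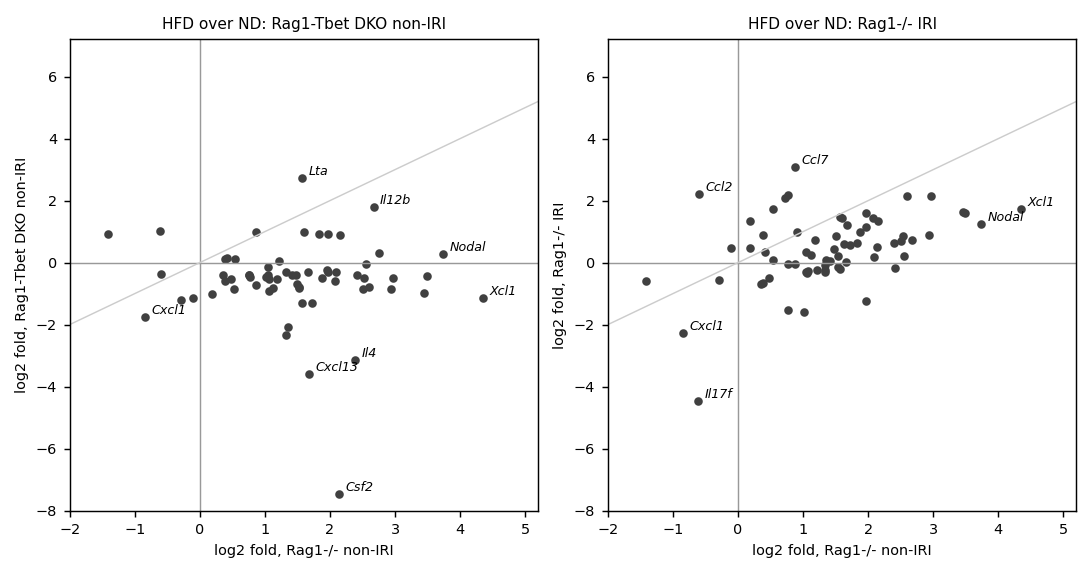
log2 fold of HFD over ND in *Rag1*-/- non-IRI liver (horizontal axes) against that in Rag1-Tbet DKO non-IRI liver (left, 64 genes) and in *Rag1*-/- IRI liver (right, 68 genes), for genes measured in both comparisons. Points below the diagonal are larger in *Rag1*-/- non-IRI liver, 59 of 64 on the left and 57 of 68 on the right. Folds are against *Actb* and *Hsp90ab1*, and these counts depend on that reference. The left panel includes *Csf2*, whose well in the ND DKO pool looks aberrant.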

How the data were processed

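RNA from at least 3 livers was pooled per condition, 1.25 µg was reverse transcribed and the RT2 array was run for 40 cycles, by the authors. Entire livers were collected from control mice and left lobes from mice with IRI. The deposited table of Ct values (a score in cycles, not normalized) was used for all results, and 35 is its highest value. A second deposited table holds ratios, 2 to the power of negative ΔCt, which the authors normalized. It was used as an alternative only, and its larger values lay within 0.0103 cycles of Ct against Actb, Hsp90ab1 and Gapdh. A deposited table of the authors' own fold changes was not used. Symbols come from the deposited tables, and 88 of 89 gene IDs matched the RefSeq table of GRCm38.p6.

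From the Ct values, log2 folds were computed in Python 3.11.15 with pandas 2.3.3 and numpy 2.4.6, and the script was tested on simulated data. The 84 genes were sorted into 18 lists by role and 6 marker lists. The genes, the lists and the comparison were chosen with earlier results of these data known. Values are given for the 10 largest and 10 smallest log2 folds, genes at the limit in 1 pool, up to 4 genes per list furthest from the array median, the genes the study names and the housekeeping genes, with some further members. With 1 pool and 1 well a side no test was made, and read depth does not apply to PCR. Alternatives were other references, a Ct limit of 32, a 3-fold threshold and the normalized table.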

Additional observations from a re-analysis of the deposited data

Results flagged for a closer look

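For 13 genes the diet difference ran past 2-fold in opposite directions in the 2 uninjured genotypes, higher in the HFD pool of *Rag1*-/- liver and lower in the HFD pool of DKO liver. They are 13 of the 55 genes higher in *Rag1*-/- liver. That share is not above the 29.1% of all genes (23 of 79) that were lower in DKO liver. With 1 pool a condition the difference between the genotypes was not tested. Among cytokines of lymphocytes and macrophages, the log2 fold in *Rag1*-/- and in DKO liver was 2.14 and -7.455 for *Csf2*, 2.39 and -3.135 for *Il4*, and 4.35 and -1.135 for *Xcl1*. It was 1.34 in *Rag1*-/- liver and at most -6.865 in DKO liver for *Il5*. It was 1.35 in *Rag1*-/- and -2.085 in DKO liver for *Il10*, and 1.33 and -2.335 for *Il6*.

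Among chemokines and tissue factors, the log2 fold in *Rag1*-/- and in DKO liver was 1.67 and -3.585 for *Cxcl13*, 1.72 and -1.315 for *Ccl11*, and 1.57 and -1.305 for *Spp1*. It was 1.63 in *Rag1*-/- liver and at most -2.785 in DKO liver for *Ccl20*. For *Adipoq*, *Il2* and *Tnfsf11* both values are bounds, at least 1.28, 1.48 and 4.16 in *Rag1*-/- liver and at most -3.355, -1.755 and -4.615 in DKO liver.

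Against the array's median Ct the opposite signs remained for *Csf2* (0.22 in *Rag1*-/- and -6.36 in DKO liver), *Il4* (0.47 and -2.04), *Tnfsf11* (2.24 and -3.52, as bounds) and *Xcl1* (2.43 and -0.04). Of the 13 genes *Tnfsf11* alone still ran past 2-fold in both directions there. On that scale the values of the other 9 were below 0 in both genotypes, those of *Adipoq* and *Il2* in *Rag1*-/- liver being lower bounds. The *Csf2* well of the ND DKO non-IRI pool read Ct 19.59, and 2 further wells of that pool, *Il3* and *Cd40lg*, read 9.36 and 11.44, where both *Rag1*-/- non-IRI pools read 35. The values of *Csf2* in DKO liver therefore rest on a well that looks aberrant.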

How the results depend on the processing

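The counts and signs turn on the reference. Genes at least 2-fold higher and lower numbered 11 and 22 with the array's median Ct, 18 and 11 with the median of the gene-by-gene Ct differences (chosen after seeing the data), 32 and 4 with *Gapdh* alone, 27 and 5 with *B2m* alone, 21 and 6 with *Gusb* alone, and 26 and 6 with *Nodal*, *Il9* and *Csf1*. Genes lower numbered 2 with *Actb*, *Hsp90ab1* and *Gapdh* or with the authors' normalized values, 4 with all 5 housekeeping genes and 0 with a Ct limit of 32. A 3-fold threshold left 34 higher and 0 lower. The median log2 fold of measured genes was 0.888 with 5 housekeeping genes, 0.77 with *Gapdh*, 0.57 with *B2m*, 0.28 with *Gusb*, 0.493 with *Nodal*, *Il9* and *Csf1*, and -0.51 with the median Ct. *Actb* alone, *Hsp90ab1* alone and raw Ct kept each count within 1.5 times.

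With the median Ct, list medians of at least 1 that turned negative were -0.42 for interferons and CXCR3 ligands, -0.8 for IL-1, -0.87 for the IL-6 family, -0.74 for type 2 and for platelet genes, -0.43 for the IL-17 list, -0.255 for lymphoid factors and -0.6 for the RANKL list, and the 4 lists with a median between 0 and 1 read -1.5 (monocyte), -1.41 (BMP), -1.05 (neutrophil) and -1.01 (constitutive). Measured genes past 2-fold that fall under the naming rule and turned negative were *Ccl20* (-0.29), *Ccl24* (-0.9), *Ccl3* (-0.32), *Cxcl13* (-0.25), *Cxcl9* (-0.42), *Hc* (-0.86), *Il10* (-0.57), *Il16* (-0.26), *Il18* (-0.39), *Il1a* (-0.8), *Il23a* (-0.09), *Pf4* (-0.74), *Spp1* (-0.35), *Thpo* (-0.88), *Tnf* (-0.04) and *Tnfrsf11b* (-0.85). In all 42 measured genes did, 26 of them at least 2-fold higher against *Actb* and *Hsp90ab1*. The lower bounds of *Adipoq* (at least -0.64), *Cd70* (at least -0.18) and *Il2* (at least -0.44) fell below 0, so the sign of these folds is not known there. With the gene-by-gene median, the IL-1 list read -0.29, the IL-6 family -0.36, type 2 and platelet lists -0.23, the RANKL list -0.09, *Ccl24* -0.39, *Hc* -0.35, *Il10* -0.06, *Il1a* -0.29, *Pf4* -0.23, *Thpo* -0.37 and *Tnfrsf11b* -0.34. The fold of *Adipoq* was then at least -0.13, a lower bound. With *Gusb* alone, the IL-1 list and *Il1a* read -0.01, the IL-6 family -0.08, *Ccl24* -0.11, *Hc* -0.07, *Thpo* -0.09 and *Tnfrsf11b* -0.06. These follow from the constant each reference subtracts.

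No paired analysis was possible because each condition is 1 pool, and for the same reason no replicate was left out. The bounds rest on a limit of 35, and 12 measured genes lay past Ct 30 in either pool, where single wells are least precise.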
